A study of Mus musculus with 24 samples.

Results

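The CC chemokines are small secreted proteins that attract leukocytes. The 9 genes described here, Ccl2, Ccl3, Ccl4, Ccl5, Ccl6, Ccl7, Ccl8, Ccl19 and Ccl20, were taken by gene symbol from 2 count tables of bulk RNA sequencing. The inner ear table lists all 9 among 18440 genes. The organoid table lists 6 among 25190 genes and has no row for Ccl3, Ccl4 or Ccl6. Inner ear libraries came from wild-type male C57BL6/J mice aged 3, 11 and 20 months without treatment (n = 4 mice per age), and held the soft tissue left after the bone was removed. The organoids were grown in Matrigel from dissociated cochlear epithelium of newborn mice labelled wild type, expanded and then differentiated. They were left untreated, given TNF-α (tumour necrosis factor, an inflammatory cytokine, here TNF), given a lentivirus that knocks down RBM25 (an RNA-binding protein of splicing), or given both treatments, with n = 3 libraries in each of these groups. The titles call the RBM25 groups knockout and the descriptions call them knockdown. The labels leave out the TNF dose and time and the control vector. No label states whether organoid replicates came from different cultures, so p-values of that experiment measure only the spread between these libraries, which may be technical.

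In textbook accounts, tissue cells and macrophages release CC chemokines when inflammatory signals such as TNF reach them, partly through the transcription factor NF-kB. The proteins bind G-protein-coupled receptors on leukocytes, and the receptor decides which cell is attracted. Ccl2 and Ccl7 act on the monocyte receptor CCR2, and Ccl8 is a close relative of them. Ccl3, Ccl4 and Ccl5 attract macrophages and T cells, and Ccl6 is a chemokine of mouse myeloid cells. Ccl19 guides cells that carry CCR7 towards lymphoid tissue, and Ccl20 is the ligand of CCR6. In the cochlea, resident macrophages are known to be present throughout life, and monocytes enter after damage.

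The family is named for 2 adjacent cysteines. These coding stretches of 30 bases, from GENCODE vM21 transcripts, are shown for the 5 genes called in at least 1 comparison, with both cysteine codons in capitals. The pair lies at codons 34 and 35 in Ccl2, 33 and 34 in Ccl7 and Ccl5, and 32 and 33 in Ccl8 and Ccl20. Each of the 9 coding sequences holds exactly 1 such pair.
Ccl2: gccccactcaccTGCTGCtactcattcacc
Ccl7: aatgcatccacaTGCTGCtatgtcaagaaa
Ccl8: gctccagtcaccTGCTGCtttcatgtacta
Ccl5: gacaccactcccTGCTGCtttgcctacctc
Ccl20: agcaactacgacTGTTGCctctcgtacata

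Of the 9 genes, 7 lie on chromosome 11 (RefSeq annotation of GRCm38.p6), in 2 groups 1408978 bp apart. The first group spans 81223 bp: Ccl2 (chr11:82035577-82037452), Ccl7 (chr11:82045712-82047525) and Ccl8 (chr11:82115185-82116799), all on the plus strand, with 8259 bp between Ccl2 and Ccl7. The second spans 138906 bp: Ccl5 (chr11:83525778-83530518), Ccl6 (chr11:83587886-83593087) and Ccl3 (chr11:83647843-83649378) on the minus strand and Ccl4 (chr11:83648624-83664683) on the plus strand. Ccl19 lies at chr4:42754525-42756365 on the minus strand and Ccl20 at chr1:83116766-83119167 on the plus strand. The RefSeq models of Ccl3 and Ccl4 overlap by 755 bp, although their GENCODE exons do not. The kit does not mark strand. RefSeq exons were not compared, so it is not known whether reads in that overlap can be assigned to 1 of them. Of the 50-base words of the Ccl19 transcripts, 52.0% also occur in transcripts of other genes, most often Gm2564, Ccl19-ps3 and Gm12407. The counts of Ccl19 are therefore uncertain. The other 8 genes shared none.

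RefSeq promoter windows, 250 bases before to 50 after the gene start, were matched for 5 of the 9 genes: Ccl3, Ccl6, Ccl8, Ccl19 and Ccl20. An NF-kB motif was found in 1 of them, that of Ccl20, on the minus strand from base -80. The same motif is present in 4.51% of all 32851 windows of 300 bases. The 150 bases before the Ccl20 start (GRCm38.p6, chr1:83116616-83116765, plus strand) are shown because Ccl20 rose with TNF in the organoids and has a window, with the motif in capitals.
Ccl20: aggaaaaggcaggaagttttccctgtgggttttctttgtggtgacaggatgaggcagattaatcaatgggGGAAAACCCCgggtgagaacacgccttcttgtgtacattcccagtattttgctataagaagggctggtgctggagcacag
On either strand, the AP-1 motif TGANTCA (7.81% of all windows) and the GAS motif TTCNNNGAA (8.3%) were not in the 5 windows. The ISRE core GAAANNGAA (8.56%) was present in Ccl3 and Ccl19. A match describes letters only, and was not tested as a site.

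Inner ear libraries held 30599012 to 38451292 counts and organoid libraries 33802411 to 37048422. Variation between replicates, as edgeR's coefficient, came to 19.8% for ears and 8.04% for organoids, where it may be technical. Levels are in CPM, counts scaled to the TMM-adjusted library size, and differences between groups are log2 fold changes from edgeR's quasi-likelihood test. A gene was called when its Benjamini-Hochberg adjusted p over all genes tested was under 0.05. Hair cell markers (7 genes, 88.5 to 218 summed CPM) and supporting cell markers (8 genes, 1291 to 2689) were present in all inner ear libraries, as were brain (6 genes, 141 to 1155) and mucosal markers (7 genes, 33.0 to 1016). Rbm25 in the organoids was 145 ± 2.93 CPM in controls and 94.6 ± 2.14 in knockdown libraries (SD, n = 3), a ratio of 0.653 (log2 fold change -0.61, SE 0.06, edgeR adjusted p = 1.01e-07). With TNF present it was 162 ± 11.6 without and 111 ± 10.0 with the knockdown (log2 fold change -0.55, SE 0.06, edgeR adjusted p = 4.61e-07).

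In the inner ear, the comparison of 20 with 3 months asks which chemokines differ between old and young adult mice. Ccl7, Ccl5, Ccl2 and Ccl8 rose. The other tested chemokines, Ccl4, Ccl3, Ccl19 and Ccl6, had higher means at 20 months but did not pass the test. So 4 of the 8 chemokines tested were called higher and 0 lower by edgeR, where 12% and 10.7% of the 15525 genes tested were called higher and lower. The median log2 fold change was 2.41 over the 8 and 0.01 over all genes tested. Ccl20 did not pass the count filter. Ccl7 and Ccl8, with at most 6 and 7 counts in a 3-month library, passed that filter of 10 counts only through older libraries. The filter asks for about 10 counts in 4 libraries, and of the 8 only Ccl6 reached this at 3 months alone (54 to 91 counts). Ccl2 and Ccl5, with 3-month minima of 5 and 4 counts, therefore also needed older libraries to pass. The numbers of called genes thus describe the genes and lend no further support.

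**Figure D1:**
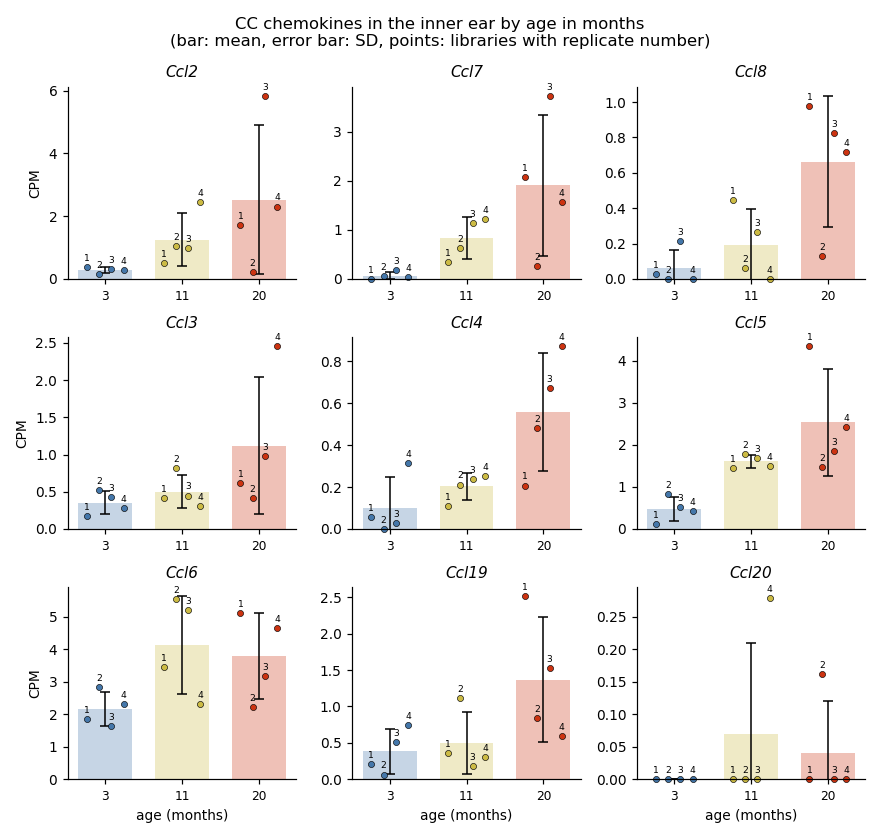
CPM (vertical axes, each starting at 0) of the 9 CC chemokines in inner ear libraries at 3, 11 and 20 months (horizontal axes); bars are means, error bars SD and points the 4 libraries of an age with their replicate number. Ccl2 and Ccl7 were highest in replicate 3 and lowest in replicate 2 of the 20-month mice, and Ccl5 at 11 and 20 months lay above every 3-month library.

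The monocyte attractants were close to the detection floor in young mice. Ccl7 was at 0, 0.0620, 0.181 and 0.0287 CPM in the 3-month libraries 1 to 4, which hold 9 counts in all. At 11 months it was at 0.334, 0.635, 1.13 and 1.23 CPM, and at 20 months at 2.08, 0.258, 3.73 and 1.56 CPM. All older libraries lay above all 3-month libraries, and 20-month replicate 2 was the lowest of the older ones. The difference between 20 and 3 months was 4.75 (log2 fold change, SE 0.91, edgeR adjusted p = 0.00361), and 5.83 without 3-month replicate 3.

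Ccl2, the main ligand of CCR2, was, like Ccl7, highest in replicate 3 and lowest in replicate 2 among the old mice. It was at 0.383, 0.155, 0.302 and 0.287 CPM at 3 months, at 0.501, 1.06, 0.976 and 2.45 CPM at 11 months, and at 1.72, 0.226, 5.84 and 2.31 CPM at 20 months. The 11-month libraries all lay above the 3-month ones, whereas 20-month replicate 2 fell within the 3-month range. Ccl2 rose by 3.14 between 3 and 20 months (log2 fold change, SE 0.79, edgeR adjusted p = 0.0137), and by 2.31 (adjusted p = 0.0311) when 20-month replicate 3 was left out. In limma on log2(FPKM + 1) the adjusted p was 0.0524.

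Ccl8, their relative, was at 0.0295, 0, 0.212 and 0 CPM at 3 months and at 0.445, 0.0605, 0.264 and 0 CPM at 11 months. At 20 months it was at 0.978, 0.129, 0.825 and 0.716 CPM, so only replicate 2 overlapped the young libraries. Its change of 3.39 (log2 fold change, SE 1.15) passed narrowly (edgeR adjusted p = 0.0490). The call was lost when any of 3-month replicates 1, 2 and 4 or 20-month replicates 1, 3 and 4 was left out, with adjusted p from 0.0679 to 0.115, and without a count filter (0.0676). Without 3-month replicate 3, which holds 7 of the 8 young counts, the log2 fold change was 5.62.

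Among Ccl3, Ccl4 and Ccl5, only Ccl5 was called between 3 and 20 months. It was at 0.118, 0.837, 0.514 and 0.430 CPM at 3 months, at 1.45, 1.79, 1.69 and 1.51 CPM at 11 months, and at 4.36, 1.48, 1.86 and 2.43 CPM at 20 months. No library of the older ages overlapped the 3-month range, and the 11-month mice were the most alike (SD 0.157 CPM). The change between 3 and 20 months was 2.41 (log2 fold change, SE 0.49, edgeR adjusted p = 0.00472), and its adjusted p over all alternatives ran from 1.14e-05 to 0.0220.

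Ccl3 and Ccl4, which encode the macrophage inflammatory proteins, were called by some methods and not by others. Ccl3 was at 0.177 to 0.527 CPM at 3 months, 0.307 to 0.817 at 11 months and 0.623, 0.419, 0.978 and 2.46 at 20 months, the last value standing far above the rest. Its log2 fold change of 1.66 (SE 0.60) had an edgeR adjusted p of 0.0608. DESeq2 gave 0.0342 and edgeR without 20-month replicate 2 gave 0.0338. Ccl4 was at 0.0589, 0, 0.0302 and 0.315 CPM at 3 months and at 0.208, 0.484, 0.672 and 0.872 at 20 months. Its difference of 2.40 (SE 0.83) had an edgeR adjusted p of 0.0520, and became 4.06 with an adjusted p of 0.00972 without 3-month replicate 4, the only young library that overlapped the old ones.

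Ccl6 was the most abundant of the chemokines in young ears and had the smallest log2 fold change of the 8. It was at 1.86, 2.82, 1.63 and 2.32 CPM at 3 months, at 3.45, 5.54, 5.20 and 2.31 CPM at 11 months, and at 5.10, 2.22, 3.18 and 4.64 CPM at 20 months. The ages overlapped, and the log2 fold change of 0.81 (SE 0.33) between 3 and 20 months had an edgeR adjusted p of 0.0902. Without 20-month replicate 2 it was 0.0409.

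The lymphoid chemokine Ccl19 ranged from 0.0620 to 0.745 CPM at 3 months, 0.185 to 1.12 at 11 months and 0.592 to 2.52 at 20 months. Its log2 fold change of 1.83 (SE 0.74) had an edgeR adjusted p of 0.0899, and the ages overlapped. Ccl20 had 0 counts in 10 libraries, 10 counts in 11-month replicate 4 and 5 counts in 20-month replicate 2. Set against 3 counts over the 3-month group, these give nominal ratios of 3.13 at 11 months and 1.73 at 20 months, each resting on 1 mouse. The ratios take the older counts as exact, so they are not firm lower bounds. Without the count filter, edgeR did not call Ccl20 at 11 months (adjusted p = 0.386) or at 20 months (adjusted p = 0.327) against 3 months.

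The 11-month mice divide the interval. Between 3 and 11 months edgeR called 0 of the 8 chemokines higher and 0 lower, where 0.979% and 0.58% of all genes tested were called. An unadjusted p under 0.05 was reached by 4 of the 8, and DESeq2 called 2. The largest differences were those of Ccl7 (log2 fold change 3.56, SE 0.91, edgeR adjusted p = 0.0660), Ccl2 (2.13, SE 0.77, adjusted p = 0.170) and Ccl5 (1.75, SE 0.49, adjusted p = 0.0840). Libraries did not overlap for these 3 genes, but the share of all genes without overlap was not computed. DESeq2 called Ccl7 (adjusted p = 0.00228) and Ccl5 (adjusted p = 0.00835), and edgeR on the 8 compared libraries alone called Ccl7 (adjusted p = 0.0307).

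Between 11 and 20 months, 0 of the 8 were called in either direction, where 7.87% of all genes were called higher and 7.9% lower, and 0 had an unadjusted p under 0.05; DESeq2 called 0. Fitted differences ran from -0.12 for Ccl6 (SE 0.32) to 1.76 for Ccl8 (SE 1.00), with adjusted p from 0.174 to 0.824. Both comparisons with 3 months share the same 4 young libraries, so they are not independent of each other.

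**Figure D2:**
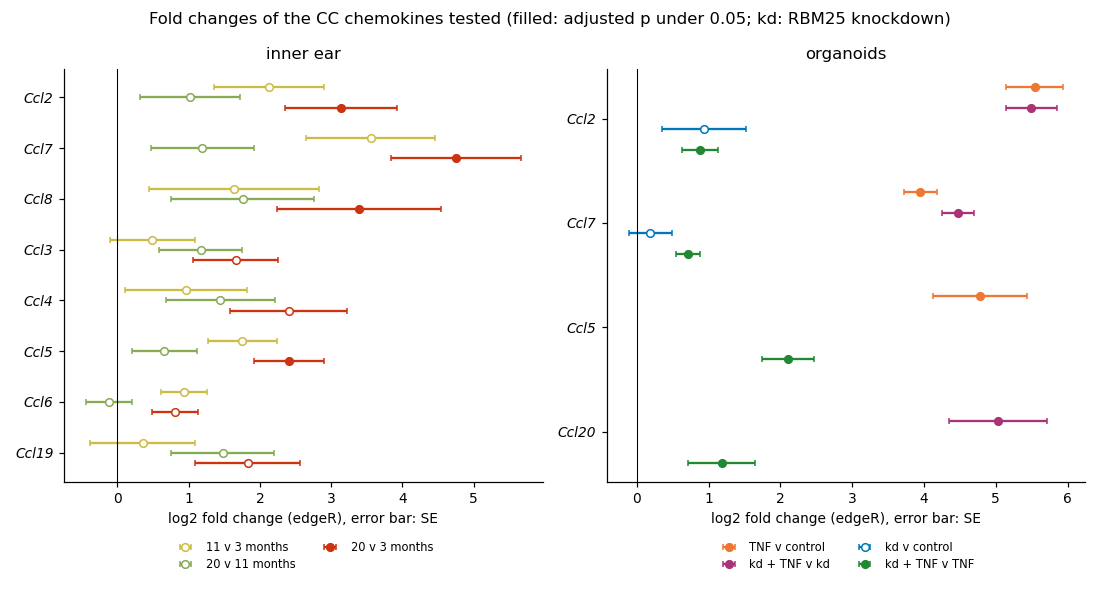
Log2 fold changes of the tested CC chemokines (horizontal axes, error bars SE) in inner ear comparisons (left) and organoid comparisons (right); filled points passed an adjusted p of 0.05, and contrasts with a group of 3 counts or fewer are left out. In the left panel filled points occur only in the comparison of 20 with 3 months, for Ccl2, Ccl7, Ccl8 and Ccl5.

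Levels of different genes were compared on the deposited FPKM scale, which accounts for length. In 3-month ears the order was Ccl6 (1.49 ± 0.374 FPKM), Ccl5 (0.886 ± 0.553), Ccl19 (0.668 ± 0.542), Ccl3 (0.443 ± 0.194), Ccl2 (0.345 ± 0.114), Ccl4 (0.153 ± 0.220), Ccl8 (0.116 ± 0.196), Ccl7 (0.0840 ± 0.0980) and Ccl20, listed at 0 (SD, n = 4). Every neighbour in this order overlapped the next. In 20-month ears Ccl5 came first (4.85 ± 2.48 FPKM), then Ccl2 (3.17 ± 2.95), Ccl6 (2.69 ± 0.960), Ccl19 (2.46 ± 1.56), Ccl7 (2.41 ± 1.80), Ccl3 (1.44 ± 1.20), Ccl8 (1.32 ± 0.741), Ccl4 (0.860 ± 0.437) and Ccl20 (0.0509 ± 0.102; SD, n = 4). Again neighbours overlapped, except Ccl4 and Ccl20. Ccl6 made up 42.9% to 65.6% of the summed CPM of the 9 genes at 3 months and 17.1% to 35.8% at 20 months.

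Markers of several cell types and tissues differed between the same ages. The 12 macrophage and monocyte markers summed to 137 to 182 CPM at 3 months, 266 to 298 at 11 months and 239 to 462 at 20 months, and 12 of 12 were called higher between 3 and 20 months, with none at 0 in any library. Of 7 tested T and NK cell markers 6 were called higher, with sums of 1.41 to 2.48 CPM at 3 months and 6.35 to 12.9 at 20 months. Muscle markers went the other way, with sums of 14.5 to 100.2 CPM at 3 months, 2.14 to 3.12 at 11 months and 5.73 to 11.7 at 20 months. Of these 5 genes, 5 were called lower at 11 and 3 at 20 months than at 3 months. Bone markers summed to 67.8 to 203 CPM at 3 months, 39.5 to 54.5 at 11 months and 36.4 to 74.3 at 20 months, and 2 of 5 were called lower in both comparisons with 3 months. Fewer cells of a type and less RNA per cell cannot be told apart in bulk tissue. The part of these cells and tissues in the chemokine differences was not tested.

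Among the old libraries, 20-month replicate 2 was the lowest in Ccl2, Ccl7, Ccl8, Ccl3, Ccl5 and Ccl6, though not in Ccl4 or Ccl19. This library was also low in macrophage markers, at 239 CPM against 427 to 462 in the other 3 old libraries. It was low in brain markers as well, at 141 CPM against 633, 1155 and 746 in replicates 1, 3 and 4. Brain marker sums were 146 to 419 CPM at 3 months and 694 to 859 at 11 months. The part of brain tissue in the result was not tested. Without 20-month replicate 2, 6 of the 8 chemokines were called higher between 3 and 20 months, against 4 with all libraries. Over all genes tested, leaving out single libraries gave 1228 to 2000 genes called higher, against 1868 with all libraries. This library was looked at because of its low chemokine values, so the 6 calls lend no further support.

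**Figure D3:**
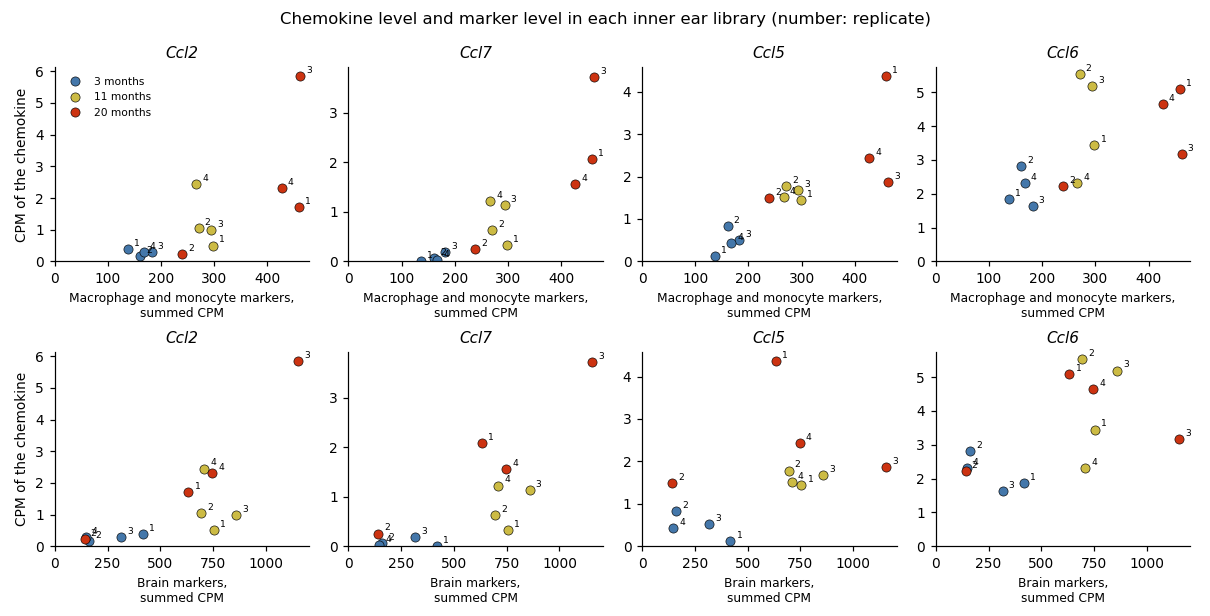
CPM of Ccl2, Ccl7, Ccl5 and Ccl6 (vertical axes) against the summed CPM of macrophage and monocyte markers (top row) or brain markers (bottom row) in each inner ear library; colours give the age and numbers the replicate. The 20-month replicate 2 lies at 239 CPM of macrophage markers and 141 CPM of brain markers, left of the other old libraries.

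Other genes of the chemokine system were described from lists. Of 8 tested other CC ligands, 2 were called higher between 3 and 20 months and 0 lower, with a median log2 fold change of 0.85. Over all genes tested, 12% were called higher and 10.7% lower. Ccl12, another CCR2 ligand, was at 0.147, 0.775, 0.242 and 0.143 CPM at 3 months and at 2.28, 1.29, 7.52 and 1.81 CPM at 20 months. It rose by 3.30 on the log2 scale (SE 0.69, edgeR adjusted p = 0.00571), by 4.16 without 3-month replicate 2 and by 2.45 without 20-month replicate 3. Ccl11, the eosinophil chemokine, rose from 4.38 ± 0.866 to 8.66 ± 1.27 CPM (SD, n = 4), with a log2 difference of 0.98 (SE 0.16) and an edgeR adjusted p of 0.00169, with no overlap. Ccl11 was also higher at 20 than at 11 months (log2 fold change 0.62, SE 0.16, edgeR adjusted p = 0.0248), a call lost without 11-month replicate 1 or 3 or 20-month replicate 4 (adjusted p = 0.0543 to 0.0726).

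Of 8 tested CC receptors, 1 was called higher and 1 lower between 3 and 20 months, a share near that of all genes (12% higher, 10.7% lower), so the count sets the receptors apart in neither direction. Ccr2, the receptor of Ccl2 and Ccl7, was at 1.00, 1.40, 1.48 and 1.78 CPM at 3 months and at 5.37, 2.93, 3.18 and 2.87 at 20 months (log2 fold change 1.34, SE 0.42, edgeR adjusted p = 0.0371). The groups did not overlap, but the call was lost without any 1 of the 3-month replicates or without 20-month replicate 1 or 4 (adjusted p = 0.0516 to 0.119). Ccr6, the receptor of Ccl20, fell from 3.89 ± 1.07 to 0.819 ± 0.754 CPM (SD, n = 4), with a log2 difference of -2.25 (SE 0.66) and an edgeR adjusted p of 0.0294. Its adjusted p was 0.0547 to 0.0853 without 3-month replicate 2 or 3 or 20-month replicate 1 or 4, and its log2 fold change was -3.08 without 20-month replicate 2. Between 3 and 11 months 0 other ligands and 0 receptors were called by edgeR (2 of each had an unadjusted p under 0.05). Between 11 and 20 months 2 of the 8 other ligands were called higher, where 7.87% of all genes were. They were Ccl11 and Ccl21a (log2 fold change 6.15, SE 1.88, edgeR adjusted p = 0.0469). Ccl21a has near-identical copies, held 4 counts in all 11-month libraries together, and lost the call without any library of either age except 20-month replicate 3 (adjusted p = 0.0751 to 0.125), so it is uncertain. Tnf itself stayed low, at 0.138 ± 0.179 CPM at 3 months and 0.292 ± 0.0657 at 20 months (SD, n = 4), with a log2 difference of 1.08 (SE 0.84) and an edgeR adjusted p of 0.379.

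The organoid experiment asks how chemokine transcripts respond to TNF and to less RBM25. Ccl2, Ccl7, Ccl5 and Ccl20 all rose with TNF, with and without the RBM25 knockdown. With the knockdown alone none of the 4 was called by the main test. With TNF present, all 4 were called higher with the knockdown than without it. The main test called no interaction, so it does not show that the knockdown effect differed with TNF. The log2 fold change with the knockdown was 0.93 without TNF and 0.89 with it for Ccl2, and 0.19 and 0.71 for Ccl7. Ccl5 and Ccl20 held too few counts without TNF for a firm value there. For Ccl5 the interaction was called by DESeq2 and limma, though not by edgeR. By edgeR, TNF against control called 4 of the 4 chemokines tested higher, where 23.3% of 15888 genes tested were called higher and 24.2% lower. Ccl8 and Ccl19 did not pass the count filter, and Ccl5 and Ccl20, with at most 3 and 5 counts in a library without TNF, passed only through their TNF libraries. The 4 of 4 thus describes the genes and lends no further support.

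**Figure D4:**
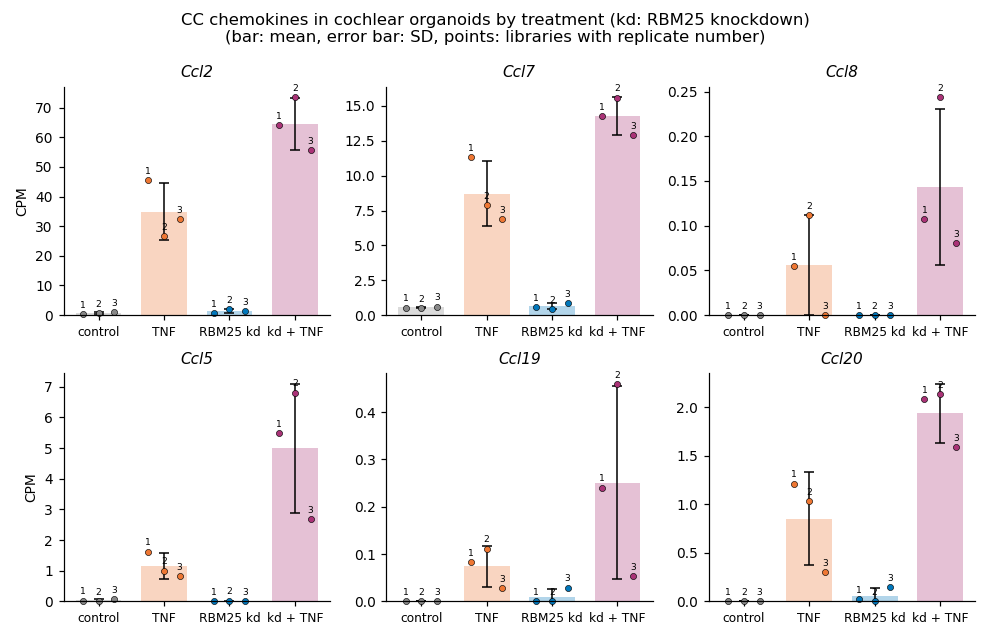
CPM (vertical axes, each starting at 0) of the 6 CC chemokines listed in the organoid table, in control, TNF, RBM25 knockdown (kd) and knockdown with TNF libraries; bars are means, error bars SD and points the 3 libraries with their replicate number. For Ccl2, Ccl7, Ccl5 and Ccl20 every TNF library lies above every library without TNF. For the same genes every knockdown with TNF library lies above every library with TNF alone. The share of all genes without overlap was not computed for either separation, so the lack of overlap does not set these genes apart.

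Ccl2 was the most abundant of them. It was at 0.258, 0.837 and 1.15 CPM in control replicates 1 to 3 and at 45.5, 26.7 and 32.4 CPM with TNF. The RBM25 knockdown libraries held 0.832, 2.01 and 1.47 CPM, and those with both treatments 64.2, 73.4 and 55.7 CPM. Every library with TNF lay far above every library without it. The TNF effect was 5.54 without the knockdown (log2 fold change, SE 0.40, edgeR adjusted p = 3.63e-06) and 5.49 with it (SE 0.35, adjusted p = 1.87e-06). In the ratio of mean CPM these are 46.6-fold and 44.8-fold.

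Ccl7, its neighbour on chromosome 11, was at 0.545, 0.520 and 0.618 CPM in controls, 11.3, 7.91 and 6.87 with TNF, 0.598, 0.446 and 0.884 with the knockdown and 14.3, 15.6 and 12.9 with both. TNF raised it by 3.95 (log2 fold change, SE 0.23, edgeR adjusted p = 1.24e-10), and by 4.47 in knockdown organoids (SE 0.22, adjusted p = 1.40e-11). The ratios of mean CPM were 15.5-fold and 22.2-fold, smaller than those of Ccl2.

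Ccl5 was nearly absent without TNF. Its counts were 1, 0 and 3 in controls and 0, 1 and 0 in knockdown libraries. With TNF they were 59, 36 and 30 (1.63, 1.01 and 0.834 CPM), and with both treatments 205, 252 and 100 (5.48, 6.81 and 2.69 CPM). TNF raised Ccl5 by 4.78 in the absence of the knockdown (log2 fold change, SE 0.65, edgeR adjusted p = 1.24e-05), and by 6.02 without control replicate 3. In knockdown organoids the 557 counts with TNF stand against 1 count without it, a pooled ratio of 541 with an exact 95% counting interval from 96.7 to 21397 (edgeR adjusted p = 2.69e-08).

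Ccl20, the gene with the printed promoter, had 0 counts in all 3 controls and 44, 37 and 11 with TNF (1.21, 1.03 and 0.306 CPM). It was at least 29.4-fold higher with TNF, measured against 3 counts over the control group (edgeR adjusted p = 6.14e-05). The knockdown libraries held 1, 0 and 5 counts and those with both treatments 78, 79 and 59 (2.09, 2.14 and 1.59 CPM). The TNF effect in knockdown organoids was 5.03 (log2 fold change, SE 0.68, edgeR adjusted p = 2.51e-05), and 6.84 without knockdown replicate 3.

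Ccl8 and Ccl19 held at most 9 and 17 counts in a library. Ccl8 had 0 counts in controls and in knockdown libraries, 2, 4 and 0 with TNF, and 4, 9 and 3 with both, which makes it at least 5.18-fold higher with TNF in knockdown organoids. Ccl19 had 0 counts in controls, 3, 4 and 1 with TNF, 0, 0 and 1 with the knockdown and 9, 17 and 2 with both. The pooled Ccl19 ratio with TNF in knockdown organoids was 27.2, with an exact 95% counting interval from 4.49 to 1112. Without the count filter, edgeR called Ccl19 higher with TNF in control (adjusted p = 0.0315) and in knockdown organoids (adjusted p = 0.00266), and Ccl8 in knockdown organoids (adjusted p = 0.00614). Counting intervals cover counting error only, and floors allow for it only in the group at 0.

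With TNF in knockdown organoids 4 of the 4 tested chemokines were called higher, where 22.8% of all genes were called higher and 22% lower. Ccl5 and Ccl20 passed the count filter only through libraries with TNF, so this count lends no further support. The knockdown alone was compared with the controls. EdgeR called 0 of the 4 higher and 0 lower, where 24.4% of all genes were called higher and 28.2% lower, and 0 of the 4 had an unadjusted p under 0.05. Ccl2 differed by 0.93 (log2 fold change, SE 0.59, edgeR adjusted p = 0.216) and Ccl7 by 0.19 (SE 0.30, adjusted p = 0.629), with overlapping libraries. Ccl20 counts were 6 in 3 knockdown libraries and 0 in controls (edgeR adjusted p = 0.0877). DESeq2 called it (adjusted p = 0.0300), as did edgeR without knockdown replicate 2 (adjusted p = 0.0426). Ccl5, with 4 and 1 counts, gave no usable ratio.

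With TNF present, the knockdown was compared with TNF alone. All 4 tested chemokines were called higher, where 25.4% of all genes tested were called higher and 26.9% lower. The libraries of the 2 groups did not overlap for any of the 4. The share of all genes without overlap was not computed, so the lack of overlap does not set the 4 apart. Ccl5 differed most, with a mean of 1.16 ± 0.417 CPM with TNF alone and 5.00 ± 2.10 with both (SD, n = 3), a ratio of 4.32 (log2 fold change 2.11, SE 0.37, edgeR adjusted p = 0.000134). Ccl7 differed 1.64-fold, from 8.70 ± 2.34 to 14.3 ± 1.33 CPM (SD, n = 3), with a log2 difference of 0.71 (SE 0.17) and an edgeR adjusted p of 0.00186. Both kept their calls under every alternative tried.

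The calls of Ccl2 and Ccl20 in this comparison depended on single libraries. Ccl2 went from 34.9 ± 9.64 to 64.4 ± 8.85 CPM (SD, n = 3), with a log2 difference of 0.89 (SE 0.25) and an edgeR adjusted p of 0.0162. Its adjusted p was 0.0678 by DESeq2, 0.109 by limma on log2(FPKM + 0.1), and 0.0522 to 0.0558 without TNF replicate 2 or 3 or replicate 2 with both treatments. Ccl20 went from 0.851 ± 0.481 to 1.94 ± 0.302 CPM (SD, n = 3), with a log2 difference of 1.18 (SE 0.47) and an edgeR adjusted p of 0.0476. That call was lost without TNF replicate 2 or 3 or any 1 replicate with both treatments, at adjusted p from 0.0587 to 0.146.

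Whether the knockdown altered the TNF effect itself was tested as an interaction, the log2 effect of TNF with the knockdown minus that without it. EdgeR called 0 of the 4 chemokines higher and 0 lower, where 7.54% and 4.81% of all genes were called. The values were -0.05 for Ccl2 (SE 0.61, edgeR adjusted p = 0.974) and 0.52 for Ccl7 (SE 0.35, adjusted p = 0.373), and the sign for Ccl2 changed with the setting. Of the 4, only Ccl5 had an unadjusted p under 0.05, with an adjusted p of 0.138. DESeq2 (adjusted p = 0.0397) and limma on log2(FPKM + 1) (0.00685) and log2(FPKM + 0.1) (0.0121) called it higher. The Ccl5 and Ccl20 interactions rest on groups of 0 to 6 counts. The 4 pairwise organoid comparisons share libraries with each other, so their values are set side by side and not counted as repeats.

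On the deposited FPKM scale the TNF organoids were ordered Ccl2 (42.9 ± 12.0 FPKM), Ccl7 (10.8 ± 2.92), Ccl5 (2.16 ± 0.784), Ccl20 (1.05 ± 0.594), Ccl19 (0.129 ± 0.0740) and Ccl8 (0.108 ± 0.108; SD, n = 3). Neighbours in this order did not overlap, except Ccl19 and Ccl8. With both treatments the order was the same, at 81.7 ± 11.4, 18.2 ± 1.76, 9.60 ± 4.06, 2.47 ± 0.396, 0.453 ± 0.366 and 0.287 ± 0.175 FPKM (SD, n = 3). Ccl2 supplied 72.4% to 80.2% of the summed CPM of the 6 genes in TNF libraries. In 20-month ears it supplied 3.63% to 31.4% of the sum of the 9. The 2 tables were normalized separately, so no level was tested between ear and organoid.

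Leukocyte markers were almost absent from the organoids. The pan-leukocyte list summed to 0.0295 to 0.401 CPM over all 12 libraries. Ptprc, which encodes CD45, had 1 count in 1 control library and 0 in the other 11, and Csf1r, the macrophage growth factor receptor, had 1 count in 1 library with both treatments. Of the 12 macrophage and monocyte markers 5 are listed, and they summed to 1.09 to 1.62 CPM in controls, 2.61 to 3.72 with TNF, 1.15 to 1.70 with the knockdown and 9.11 to 11.1 with both. That increase lay in Aif1, at 0 CPM in controls, 2.01 with TNF, 0.0625 with the knockdown and 8.61 with both as group means. The marrow gene Camp moved likewise, with group means of 0.745, 7.54, 1.38 and 22.2 CPM. The 8 supporting and epithelial cell markers summed to 8107 to 8450 CPM in controls and 4038 to 4599 with TNF. With TNF 1 of these 8 was called higher, 3 lower and 4 in neither direction (median log2 fold change -0.07), where 23.3% of all genes were called higher and 24.2% lower. Most of the sum's difference lay in Otog (group means of 5221 and 1571 CPM). Endothelial and lymphatic markers summed to 20.4 to 21.0 CPM in controls, 18.7 to 24.2 with TNF, 61.5 to 83.7 with the knockdown and 90.2 to 96.4 with both. Other sums also differed between controls and knockdown libraries. Hair cell markers were at 130 to 144 CPM in controls and 300 to 427 with the knockdown. Brain markers were at 32.3 to 33.8 and 82.5 to 90.3, mucosal markers at 6.94 to 7.28 and 40.1 to 46.6. Fibroblast markers were lower with the knockdown, at 1451 to 1482 and 796 to 947 CPM. The part of these shifts in the chemokine differences was not tested.

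The known feedback genes of NF-kB, a list of 10, were described alongside. With TNF 9 of 10 were called higher and 1 lower in control organoids (median log2 fold change 3.13), and 8 higher and 1 lower in knockdown organoids (median 3.32). Of all genes tested, 23.3% were called higher and 24.2% lower in the first comparison, and 22.8% and 22% in the second. Between both treatments and TNF alone 2 were called higher and 5 lower (median -0.15), where 25.4% and 26.9% of all genes were called. Between the knockdown alone and controls 2 were called higher and 6 lower (median -0.41), where 24.4% and 28.2% of all genes were. In each of these comparisons the 2 called higher are near the share of all genes. In the interaction of TNF and knockdown 6 were called higher and 1 lower (median 0.25), where 7.54% and 4.81% of all genes were. In the inner ear 7 of 10 were called higher between 3 and 20 months (median 0.67), where 12% of all genes were. Tnf transcripts were at 0 in all control and knockdown libraries, at 1.12 to 1.30 CPM with TNF and at 1.60 to 2.22 CPM with both.

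Few other CC genes were expressed in the organoids. Of 4 tested other CC ligands, Ccl11 alone was called, and it was higher in all 4 pairwise comparisons; 1 of 4 is near the share of all genes called higher in each (22.8% to 25.4%). Its counts were 0, 2 and 3 in controls, 15, 9 and 30 with TNF, 20, 27 and 15 with the knockdown and 59, 72 and 23 with both. Ccl11 was called higher than in controls with the knockdown alone (log2 fold change 3.47, SE 0.74, edgeR adjusted p = 0.000699) and with TNF alone (3.28, SE 0.75, adjusted p = 0.00150). Without control replicate 3 these were 4.16 and 3.96. With both treatments Ccl11 was higher than with the knockdown (1.27, SE 0.48, edgeR adjusted p = 0.0386) or TNF alone (1.46, SE 0.49, adjusted p = 0.0172), although libraries overlapped. The first of these calls was lost without knockdown replicate 1 or 3 or replicate 1 or 2 with both treatments (adjusted p = 0.0962 to 0.158), the second without TNF replicate 1 or 2 or the same 2 libraries with both (0.0563 to 0.0843).

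Of the CC receptors only Ackr4 and Ccrl2, atypical receptors without classical signalling, passed the count filter. Ackr4, a scavenger of Ccl19, fell with the knockdown from 1.42 ± 0.226 to 0.478 ± 0.0880 CPM (SD, n = 3), with a log2 difference of -1.56 (SE 0.34) and an edgeR adjusted p of 0.000885. It was also lower with both treatments than with TNF alone (log2 fold change -1.27, SE 0.35, edgeR adjusted p = 0.00537). Ccrl2 fell with the knockdown from 0.732 ± 0.363 to 0.271 ± 0.161 CPM (SD, n = 3), with a log2 difference of -1.43 (SE 0.50) and an edgeR adjusted p of 0.0227, a call lost without control replicate 1 or knockdown replicate 1 or 3 (adjusted p = 0.0655 to 0.163). TNF changed neither by this test. Transcripts of Ccr6, the receptor of Ccl20, numbered 1 or 2 counts in each group.

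Genes with the most similar profile were listed by Pearson's r of log2 CPM over the 12 libraries of an experiment, as a description, since libraries share groups and cell content. Among 13879 inner ear genes, Ccl7 was most like Cd83 (r = 0.977), Arhgap15 and Ifi204, Ccl2 like Septin8 (0.946), Slc7a11 and C1ql1, and Ccl5 like Pon3 (0.957), Plau and Unc93b1. Ccl8 was most like Tmed5 (0.944), Mipep and Fam107b, Ccl4 like Dio2 (0.939), Msh6 and Nip7, and Ccl6 like Slc16a11 (0.914), Wdr78 and Lair1. Ccl3 came closest to Shisa7 (0.895), Zscan30 and Cemip, and Ccl19 to Lcp1 (0.888), Togaram2 and Spi1. Among 12343 organoid genes, Ccl2 was most like Psmb10 (0.991), Mmp9 and Psmb8, and Ccl7 like Madcam1 (0.996), Ifitm3 and H2-M2. Ccl5 was most like Birc2 (0.988), Saa3 and Cfb, and Ccl20 like Psma5 (0.990), Edf1 and Ran.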

How the data were processed

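RNA was measured in 24 libraries, 12 of inner ear and 12 of cochlear organoid, made with an unstranded TruSeq kit per the labels' protocols. The deposited counts are whole reads per gene without normalization. The authors also deposited FPKM, scaled to gene length and depth. Trimmomatic, HISAT2, HTSeq and DESeq2 and the build mm10 are listed in the submitters' processing notes, without versions.

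Each count table was fitted whole with edgeR 4.0.16 (R 4.3.3; TMM, filterByExpr with a minimum count of 10, robust quasi-likelihood, 1 coefficient per group), two-sided, with Benjamini-Hochberg adjustment over 15525 and 15888 genes and a threshold of 0.05. SE is the absolute log2 fold change divided by the square root of F. Lower bounds use 3 counts over the group without reads and take the counts of the other group as exact. Alternatives were DESeq2 1.42.0, its size factors in edgeR, no filter, only the compared libraries, a replicate block, limma 3.58.1 on log2(FPKM + 1) and log2(FPKM + 0.1), and each library left out in turn. The scripts were tested on simulated data.

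The chemokines and lists were chosen with earlier results of these data known. All 9 chemokines are described; other CC ligands and receptors are named where called, at most 4 per list and comparison, and the 3 most similar genes per tested chemokine exclude CC ligands, predicted genes and means under 1 CPM. Replicates differed beyond sampling noise (chi-square per degree of freedom at least 4.73). Figures were drawn with matplotlib 3.10.9.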

Additional observations from a re-analysis of the deposited data

Results flagged for a closer look

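In groups of 4 inner ear libraries, 7 of 41 gene and age groups held 1 library that stood far outside the range of the other 3 by Dixon's test. Its chance rate of about 1 in 20 groups holds for normally distributed values, which these CPM, many near 0, need not be. A group with reads in only 1 library is always flagged, as Ccl20 at 11 and 20 months and Ccl21a at 11 months were. The 7 of 41 can therefore not be read as an excess. Among the chemokines of the report, Ccl8 at 3 months was 0.212 CPM in replicate 3 and at most 0.0295 in the others. Ccl20 was detected in 1 library at each older age, at 0.279 CPM in 11-month replicate 4 and 0.161 CPM in 20-month replicate 2, with 0 in the other 3 of each age. Among other CC genes, Ccl12 was 0.775 CPM in 3-month replicate 2 (others 0.143 to 0.242) and 7.52 CPM in 20-month replicate 3 (others 1.29 to 2.28), the library that was also highest in Ccl2 and Ccl7. Ccl21a was 0.112 CPM in 11-month replicate 4 and 0 in the others, and Ccr2 was 5.37 CPM in 20-month replicate 1 against 2.87 to 3.18.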

How the results depend on the processing

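Of 644 pairs of a chemokine result and an alternative, 596 kept their direction and side of the threshold, 20 lost a call, 16 gained one and 12 changed sign; the cause was not tested. Counts of called chemokines moved as follows: 11 against 3 months, 0 higher, became 2 with DESeq2 and 1 with only the libraries compared; the knockdown alone, 0 higher, became 1 with DESeq2 and 0 to 1 leaving out single libraries; the knockdown with TNF against TNF, 4 higher, became 2 to 4; the interaction, 0 higher, became 1 with DESeq2 and with limma on log2(FPKM + 1) and log2(FPKM + 0.1). Leaving out single libraries gave 3 to 6 called chemokines for 20 against 3 months. Sign changes occurred only in uncalled results: leaving out single libraries, Ccl19 at 11 against 3 months ran from -0.43 to 0.90, Ccl6 at 20 against 11 months from -0.32 to 0.062, Ccl7 with the knockdown alone from -0.10 to 0.39 and the interaction of Ccl2 from -0.49 to 0.36; limma on log2(FPKM + 1) gave interactions of 0.36 for Ccl2 and 0.70 for Ccl20, and on log2(FPKM + 0.1) 0.68 for Ccl20.

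Same-numbered libraries did not deviate together in every pair of any comparison (knockdown against control, r = 0.298, 0.0237 and 0.233), so the numbers were not taken to pair samples. With the replicate block 5 chemokines were called at 20 against 3 months (Ccl4 added, adjusted p = 0.0437) and 3 for the knockdown with TNF against TNF (Ccl20 lost, 0.0504). Other CC ligands called higher numbered 0 to 3 with TNF (main 1), and CC receptors called higher 0 to 2 at 20 against 3 months (main 1). Over all genes, calls ranged from 27 to 585 higher (main 152) and 12 to 446 lower (90) at 11 against 3 months, 362 to 1802 (1222) and 349 to 1813 (1226) at 20 against 11 months, 1228 to 2218 (1868) and 998 to 2063 (1657) at 20 against 3 months, and 794 to 1480 (1198) and 440 to 1098 (764) for the interaction. Most inner ear values rest on under 100 counts per library, which limits precision.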
